A study of Mus musculus with 11 samples.

Results

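The genes of retinoic acid (RA) uptake, synthesis, binding, response and breakdown were compared between otospheres (OS), the cochlear sensory epithelium (CSE) they were grown from, and embryonic stem cells (ESCs). The 9 genes were Stra6, Rbp4, Aldh1a1, Aldh1a2, Aldh1a3, Crabp1, Crabp2, Rarb and Cyp26b1. They were chosen by name as members of the pathway, with earlier results of these data known. Counts and medians of the 9 genes set beside those of all probes are therefore a description. Every non-control probe whose accession mapped to one of these symbols was taken, with the brightest probe of a gene as its main probe. Of 55681 probes and 20284 genes named through accessions, 10 probes and 9 genes belonged to this set, with 2 probes for Rarb and 1 for each of the others. All 10 probes passed the filter on dim probes, as did 47997 probes in all.

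Retinol circulates in blood bound to retinol-binding protein, enters some cells through the membrane receptor STRA6, and is oxidized first to retinal and then, by the retinaldehyde dehydrogenases of the ALDH1A family, to RA. RA is carried in the cell by the CRABP proteins, activates nuclear receptors (RARs) that sit on DNA with RXR partners at repeated hexamer motifs, and is broken down by CYP26 enzymes. In the developing inner ear RA helps to pattern the otocyst, and both its excess and its lack disturb ear formation. Several genes of the pathway, Rarb and the CYP26 enzymes among them, are known to respond to RA themselves.

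Total RNA was labelled with Cy3 and hybridized to 11 single-colour arrays. The CSE samples (CSE1, CSE2, CSE3) were epithelia freshly dissected from the cochleae of ICR mice at postnatal day 1, without culture, with the spiral ligament and stria vascularis removed, and 10 mice (20 cochleae) went into a preparation. The OS samples (OS1 to OS6) were secondary otospheres, grown in suspension from dissociated CSE of such mice, passaged 1 time and cultured for 4 to 5 days before and again after the passage. Before RNA isolation they were put through a 100 µm strainer so that solid spheres were kept. Their medium was DMEM/F-12 with N2, B27, bFGF (10 ng/ml), IGF1 (50 ng/ml) and heparan sulfate (50 ng/ml). B27 is sold with and without vitamin A, and the sources used here do not state which was used. The ESC group held 1 array of each of 2 lines at passage 13, G4-2 (ES1) and D3 (ES2), kept without feeder cells in serum (10%) with LIF (1000 U/ml). No genetic change was named for any group, and a line stands for 1 cell line, not for ESCs at large. The spread between arrays OS1 and OS2 was 0.943 of that among replicate spots within an array, and the spread between OS4 and OS5 was 0.430 of it, both less than the sampling noise. Each pair was therefore averaged and counted as 1 sample, which left 4 OS, 3 CSE and 2 ESC samples. The labels do not say whether the samples of a group came from separate preparations, so the p-values measure only the spread between these samples. ES1, OS1 to OS3, CSE1 and CSE2 lay on slide 1, and ES2, OS4 to OS6 and CSE3 on slide 2. ESC line and slide cannot be told apart.

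Values are log2 signals after background correction and quantile normalization, so that a difference of 1 is a 2-fold change in signal. Levels of different probes are not comparable with each other. The position given with a gene is that of its whole annotated gene in RefSeq GRCm38.p6, not of the probe. A probe was called different between groups when its limma p, adjusted by the Benjamini-Hochberg method over the 47997 kept probes, was under 0.05. The number of arrays limits the precision. No spot was saturated, the arrays had median signals of 68.0 to 116 and median local backgrounds of 32.0 to 38.0, and the scanner's flag put 55.1% to 71.6% of spots well above background. The markers Pou5f1, Zfp42 and Dppa5a were at 11.2 or more in both ESC samples and at 7.13 or less in every OS and CSE sample. The probe matched to Nanog, at 8.26 or more in ESCs and 8.82 to 10.75 in OS and CSE, did not mark ESCs. The study lists Nanog as upregulated only in ESCs, and whether it read the same probe was not examined. CSE had all 6 hair cell markers and all 6 supporting cell markers well above background on each array. In OS, 4 of 6 hair cell and 6 of 6 supporting cell markers were lower than in CSE, and Prox1, a supporting cell transcription factor, was not well above background on any OS array.

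Reference promoter windows, reaching from 250 bases upstream to 50 downstream of a transcript start, were searched for the classical RA response element of the DR5 type, 2 hexamers in the same direction with 5 bases between them, on both strands. A hexamer was counted if it read AGGTCA, or if it read AGTTCA, or if it read GGGTCA, or if it read GGTTCA. The search covered 12 windows of 7 members, while Aldh1a3 and Crabp2 had no window in the table. Among the members only Rarb held a match, against 32 of all 32851 windows (0.0974%), and no member window held the same repeat with 2 bases between the copies (DR2), found in 88 of all windows (0.268%). DR5 and DR2 matches were counted separately and cannot overlap the same pair of hexamers. The 250 bases upstream of the Rarb start (RefSeq, GRCm38.p6, chr14:16575477-16575726, minus strand, upstream of a start that lies within the annotated gene and not at its outermost 5' end, printed 5' to 3' in the direction of transcription) are shown because Rarb, itself a known RA target, was higher in both cochlear groups than in ESCs on both of its probes. The capitals mark the repeat, 53 to 37 bases upstream of the start:
Rarb: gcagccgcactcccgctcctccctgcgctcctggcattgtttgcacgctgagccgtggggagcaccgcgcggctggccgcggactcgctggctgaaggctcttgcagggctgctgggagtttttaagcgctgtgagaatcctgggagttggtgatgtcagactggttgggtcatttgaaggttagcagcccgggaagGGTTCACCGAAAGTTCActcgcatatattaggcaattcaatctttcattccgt
The promoter of Cyp26a1, the other main RA-degrading enzyme and a gene outside the 9, is shown for comparison because it holds a DR5 match as well (chr19:37697558-37697807, plus strand), here in reverse orientation, 32 to 16 bases upstream of the start:
Cyp26a1: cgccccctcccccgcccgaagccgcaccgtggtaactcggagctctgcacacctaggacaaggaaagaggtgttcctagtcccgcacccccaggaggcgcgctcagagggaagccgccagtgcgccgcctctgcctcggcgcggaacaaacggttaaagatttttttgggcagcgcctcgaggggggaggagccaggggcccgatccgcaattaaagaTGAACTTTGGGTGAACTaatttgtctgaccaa

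Against CSE, OS had lower signals for Crabp1, Cyp26b1 and Stra6, which passed the test, and 0 of the 9 genes passed it in the other direction (limma, 0 at an unadjusted p under 0.05). Across all probes, 6.19% were lower and 4.84% higher in OS than in CSE, and 11% differed in either direction. The median difference over the 9 genes was -1.66 on the log2 scale, beside 0.02 over all kept probes. The difference was negative for 9 of 9 genes, but for Aldh1a2, Rarb and Rbp4 its sign changed with the samples or the scaling used. In 4 of the 9 genes (the 3 named and Crabp2) every OS sample lay below every CSE sample, as did 12.7% of all probes, while for 10.8% every OS sample lay above every CSE sample (23.4% in either direction). In these bulk samples, fewer cells of a type and less RNA per cell cannot be told apart.

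Against ESCs, OS had higher signals for Aldh1a1, Aldh1a3, Crabp2, Rarb and Cyp26b1 and a lower signal for Crabp1. Of all probes, 12.1% were higher, 15.6% lower and 27.7% called in either direction in this comparison. CSE had higher signals than ESCs for these 5 genes and for Crabp1 and Stra6, against 13.2% higher, 15.6% lower and 28.8% in either direction over all probes. In limma, 0 of the 9 were called lower in CSE than in ESCs (0 at an unadjusted p under 0.05), with an adjusted p of 0.450 for the only negative difference (Rbp4). Between OS and ESCs the samples of 6 genes were all higher in OS and those of 1 (Crabp1) all lower, where 20.7% of all probes were all higher and 25.4% all lower (46.1% together). Between CSE and ESCs the samples of 8 genes were all higher and those of 1 (Rbp4) all lower in CSE, against 23.7% and 28.5% of all probes (52.2% together). The median differences over the 9 genes were 2.61 and 3.82, beside -0.03 and -0.06 over all probes. Both comparisons use the same 2 ESC arrays.

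**Figure D1:**
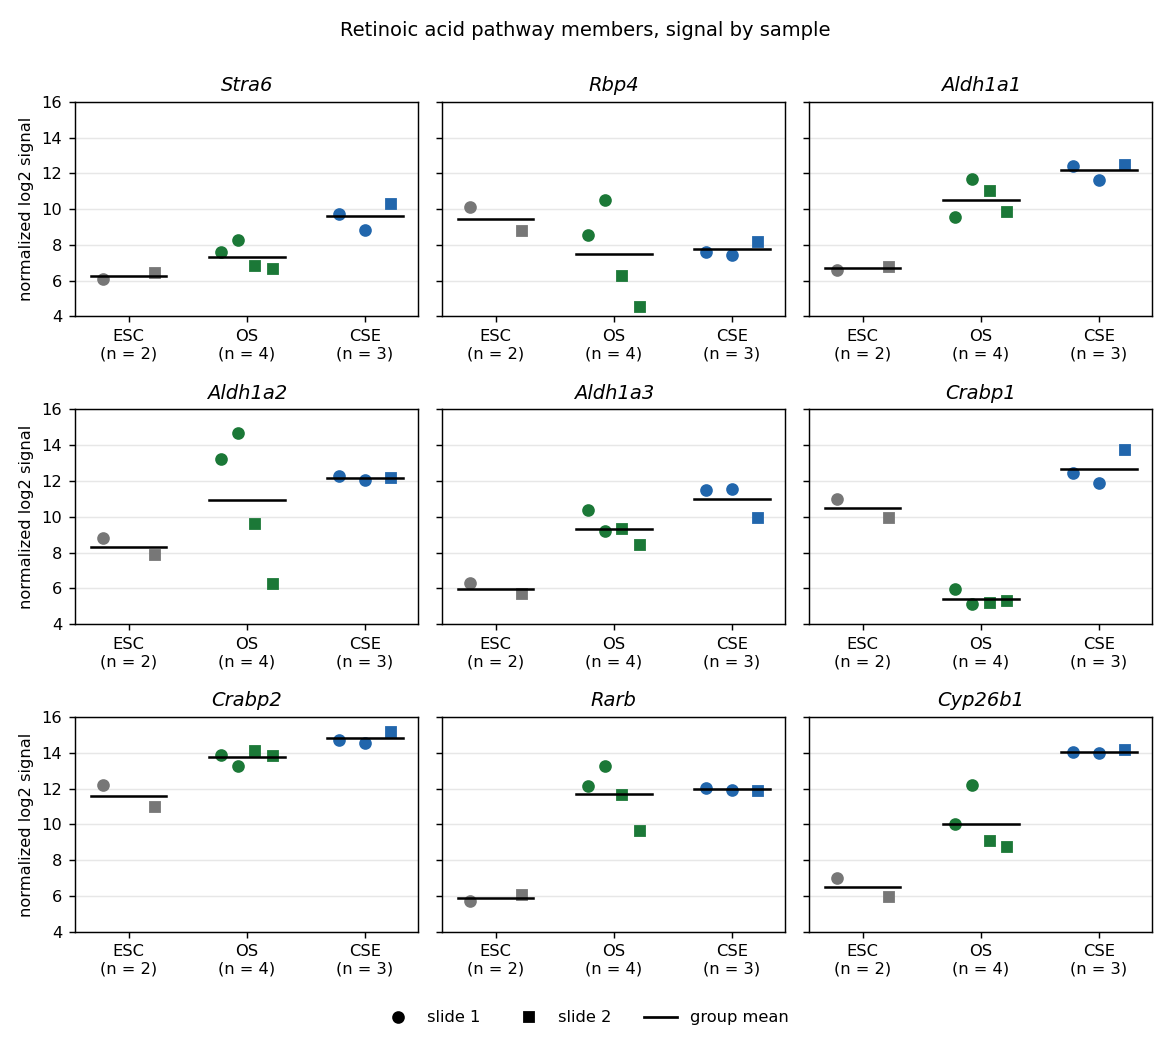
Normalized log2 signal of the main probe of each of the 9 genes (y axis) in each sample of ESCs (n = 2), OS (n = 4) and CSE (n = 3), with the group mean as a line and the slide as the shape of the point. Crabp1 lay between 5.14 and 5.95 in OS and between 11.87 and 13.72 in CSE, while Aldh1a2 and Rbp4 were tight in CSE and spread widely in OS.

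Stra6 (chr9:58063793-58154004), the membrane receptor that takes up retinol from its carrier, had log2 signals of 9.72, 8.81 and 10.26 in the 3 CSE samples. In OS it was 7.59 (OS1 and OS2), 8.27 (OS3), 6.81 (OS4 and OS5) and 6.65 (OS6), and in ESCs 6.07 (ES1) and 6.41 (ES2). All OS samples lay below all CSE samples and above both ESC samples. The signal in OS was 4.81-fold lower than in CSE (log2 difference -2.27, standard error 0.45, limma adjusted p = 0.0130). Without CSE1 or without CSE3 the adjusted p was 0.0594, so that this call rested on those samples. The difference was -1.33 within slide 1 and -3.54 within slide 2. OS exceeded ESCs by 1.09 (95% interval -0.07 to 2.25, adjusted p = 0.156), and CSE exceeded ESCs by 3.36 (adjusted p = 0.00170).

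Rbp4 (chr19:38116620-38125321), the retinol carrier of the blood, was 10.11 and 8.76 in ESCs and 7.62, 7.46 and 8.18 in CSE. In OS it ranged from 10.54 in OS3 and 8.53 in OS1 and OS2 to 6.28 in OS4 and OS5 and 4.52 in OS6, where it was not well above background. The OS samples thus spanned more than the whole range of the other groups. The difference of OS from CSE was -0.29 with a 95% interval of -3.03 to 2.46 (adjusted p = 0.952). It was 1.99 within slide 1 and -2.78 within slide 2. Without OS6 the difference was 0.70 and without OS4 and OS5 it was 0.11. CSE minus ESC was -1.68 (adjusted p = 0.450).

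The 3 retinaldehyde dehydrogenases, which make RA from retinal, behaved differently from one another. Aldh1a1 (chr19:20492583-20643463) was 12.43, 11.63 and 12.48 in CSE and 6.59 and 6.78 in ESCs. In OS it was 9.55 (OS1 and OS2), 11.66 (OS3), 11.04 (OS4 and OS5) and 9.84 (OS6). Every OS sample was above both ESC samples, and OS3 reached the lowest CSE sample. OS exceeded ESCs by 3.84 (standard error 0.56), or 14.3-fold (limma, adjusted p = 0.00104), and CSE exceeded ESCs by 5.49, or 45.1-fold (adjusted p = 2.1e-04). For Aldh1a1, OS minus CSE was -1.66 (95% interval -2.78 to -0.54, adjusted p = 0.0683) and did not pass the threshold. It was -1.42 within slide 1 and -2.04 within slide 2, which were not tested. It passed in 2 of 22 alternatives, without OS3 (-2.04, limma adjusted p = 0.0169) and with every array separate (-1.73, adjusted p = 0.0324). It was not called with median centring (-1.34, adjusted p = 0.169) or without CSE1 (-1.53, adjusted p = 0.215). On this probe the averaged arrays OS1 and OS2 were 9.14 and 9.97, a wider gap than between OS4 (11.10) and OS5 (10.97).

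Aldh1a3 (chr7:66390892-66427477) was 11.52, 11.56 and 9.93 in CSE and 6.31 and 5.67 in ESCs, where ES2 was not well above background. Signals in OS were 10.37 (OS1 and OS2), 9.22 (OS3), 9.30 (OS4 and OS5) and 8.42 (OS6). OS lay between the other groups and overlapped CSE through CSE3. OS exceeded ESCs by 3.34, or 10.1-fold (adjusted p = 0.00287), and CSE exceeded ESCs by 5.02, or 32.3-fold (adjusted p = 4.42e-04). Against CSE the difference was -1.67 (95% interval -2.86 to -0.49, adjusted p = 0.0801). It was -1.74 within slide 1 and -1.07 within slide 2, which were not tested. Calls arose in 4 of 22 alternatives. Among them were slide as a block (-1.50, limma adjusted p = 0.0301) and the fit without CSE3 (-2.21, adjusted p = 0.0364). It was not called with median centring (-1.40, adjusted p = 0.216) or without CSE1 (-1.41, adjusted p = 0.268).

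Aldh1a2 (chr9:71215789-71296243), the main RA-making enzyme of early embryonic mesoderm, was nearly constant in CSE, at 12.28, 12.04 and 12.16 (SD 0.12, n = 3). In OS it was 13.26 in OS1 and OS2, 14.68 in OS3, 9.62 in OS4 and OS5 and 6.22 in OS6 (SD 3.80, n = 4). The OS samples of slide 1 were above every CSE sample and those of slide 2 below, and OS6 was below both ESC samples (8.80 and 7.88). Averaged arrays agreed closely, at 13.19 and 13.33 for OS1 and OS2 and at 9.65 and 9.60 for OS4 and OS5. Within slide 1 OS minus CSE was 1.81, within slide 2 it was -4.24, and over all samples -1.21 (95% interval -5.10 to 2.67, adjusted p = 0.804). The pooled value therefore describes neither set of samples. OS minus ESC was 2.61 (adjusted p = 0.376) and became 4.18 without OS6 (adjusted p = 0.0389). CSE minus ESC was 3.82 (adjusted p = 0.210), although the samples of these groups did not overlap, since limma uses the spread of all 3 groups.

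The pair of cellular RA-binding proteins parted in OS. Crabp1 (chr9:54764748-54773110) was 12.47, 11.87 and 13.72 in CSE and 11.01 and 9.93 in ESCs. The OS signals were 5.95 (OS1 and OS2), 5.14 (OS3), 5.17 (OS4 and OS5) and 5.31 (OS6), and among the 6 OS arrays only OS1 and OS2 were well above background. OS was the lowest group, with no overlap with either of the others. Crabp1 was lower in OS than in CSE (log2 difference -7.30, limma adjusted p = 5.71e-05) and than in ESCs (-5.08, adjusted p = 1.52e-04). With 4 of the 6 OS arrays not well above background, the size of these differences was set by the floor of the arrays, and over the alternatives they ran from -9.11 to -6.44 and from -7.31 to -4.25. Within the slides OS minus CSE was -6.63 and -8.49. CSE exceeded ESCs by 2.22 (adjusted p = 0.0135), a call that was lost without ES2 (1.68, adjusted p = 0.103), with median centring (1.82, adjusted p = 0.0601) and with scaling to the 75th percentile (1.80, adjusted p = 0.149).

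Crabp2 (chr3:87948693-87953372), which hands RA to its nuclear receptors, was 14.72, 14.53 and 15.19 in CSE and 12.187 and 10.997 in ESCs. Values in OS were 13.89 (OS1 and OS2), 13.26 (OS3), 14.12 (OS4 and OS5) and 13.83 (OS6), between the other groups without overlap. OS exceeded ESCs by 2.18, or 4.54-fold (adjusted p = 0.00217), and CSE exceeded ESCs by 3.22, or 9.34-fold (adjusted p = 3.69e-04). OS minus CSE was -1.04 (95% interval -1.77 to -0.31, adjusted p = 0.0798), 2.06-fold lower, and did not pass the threshold. It passed with every array separate (-0.96, limma adjusted p = 0.0358), a fit that counts the averaged arrays singly. With median centring it was -0.72 (adjusted p = 0.605) and was not called. Nor was it called with scaling to the 75th percentile (-0.81, adjusted p = 0.376). The difference was -1.04 without ES1 or ES2, -1.05 within slide 1 and -1.21 within slide 2. The range of Crabp2 over the 4 OS samples was 0.86.

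Rarb (chr14:16430839-17082331), a nuclear receptor of RA, was 12.16 in OS1 and OS2, 13.28 in OS3, 11.64 in OS4 and OS5 and 9.63 in OS6. In CSE it was 12.06, 11.95 and 11.90, and in ESCs 5.71 and 6.07. Every OS and CSE sample lay above both ESC samples, and OS lay on both sides of CSE. OS exceeded ESCs by 5.79 (standard error 0.79), or 55.3-fold (limma, adjusted p = 7.35e-04), and CSE exceeded ESCs by 6.08, or 67.7-fold (adjusted p = 7.35e-04). OS minus CSE was -0.29 (95% interval -1.88 to 1.29, adjusted p = 0.905). It was 0.72 within slide 1 and -1.26 within slide 2, and 0.39 without OS6.

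The dimmer probe of Rarb gave 9.26, 10.66, 8.66 and 7.27 in the same order of OS samples, 8.33, 9.04 and 8.08 in CSE, and 5.26 and 5.36 in ESCs, where it was not well above background. It placed Rarb 12.6-fold higher in OS (limma adjusted p = 0.00633) and 9.02-fold higher in CSE (adjusted p = 0.0158) than in ESCs. With a floor set on the ESC arrays the ratios were 11.9 and 8.51, and these were not tested. For them each ESC array was given its dimmest signal that still counted as well above background, unless Rarb itself was brighter. The OS or CSE mean was then divided by the ESC mean so obtained. This floor is not a strict detection limit. OS minus CSE was 0.48 on this probe (adjusted p = 0.801), opposite in sign to the main probe, and both were within the spread between samples. Both probes put the OS samples in 1 order, OS3 highest and OS6 lowest.

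A DR5 match by the rule above, not always with the letters printed for Rarb, was held by 31 genes, Rarb included. Of these, 10 had a named probe and 9 a probe that passed the filter. Rarb was the only one of these 9 called higher in OS or in CSE than in ESCs, and 0 of the 9 were called between OS and CSE by limma (0 at an unadjusted p under 0.05). Over all probes 12.1% were higher in OS and 13.2% in CSE than in ESCs and 11% differed between OS and CSE, so that these counts were near the background. Cyp26a1, also printed above, was 7.12 and 7.58 in ESCs, 5.48, 7.05, 5.46 and 6.34 in OS and 6.28, 6.22 and 6.13 in CSE. Both ESC samples were above every OS sample, with OS minus ESC at -1.27 (adjusted p = 0.0542). Of these promoter matches, the letters are all that was examined.

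Cyp26b1 (chr6:84571414-84593908), an enzyme that breaks down RA, had the largest difference between CSE and ESCs of the 9 genes. It was 14.04, 14.01 and 14.17 in CSE (SD 0.09, n = 3) and 6.99 and 5.97 in ESCs. In OS it was 10.01 (OS1 and OS2), 12.21 (OS3), 9.07 (OS4 and OS5) and 8.73 (OS6). The 3 groups did not overlap, with OS in the middle. CSE exceeded ESCs by 7.59 (standard error 0.88), or 193-fold (limma, adjusted p = 3.1e-04). OS was 16.8-fold lower than CSE (log2 difference -4.07, adjusted p = 0.00823) and 11.5-fold higher than ESCs (3.53, adjusted p = 0.0122). The difference from CSE was -2.91 within slide 1 and -5.27 within slide 2. Without ES2, OS minus ESC was 3.02 with an adjusted p of 0.0920.

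**Figure D2:**
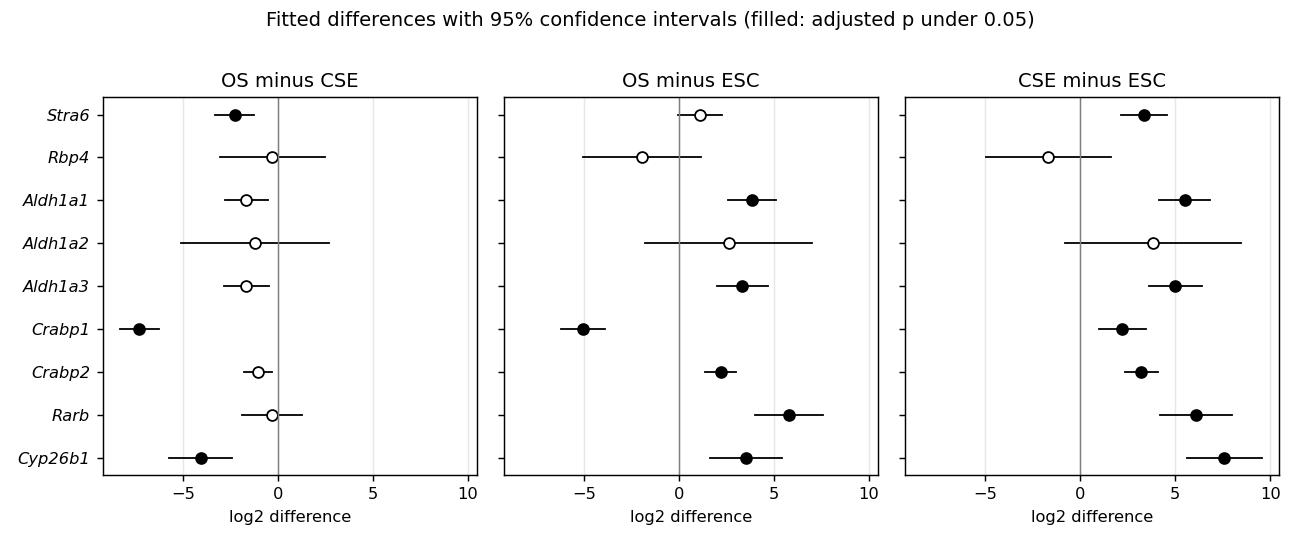
Fitted log2 differences (x axis) of the 9 genes in the 3 comparisons, with 95% confidence intervals as bars and filled points for an adjusted p under 0.05. Crabp1 was lowest in OS, the interval of Aldh1a2 spanned 0 in every comparison, and Rarb was near 0 between OS and CSE but about 6 above ESCs.

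Several cell types differed between OS and CSE along with these genes. Relative to CSE, OS were lower in 4 of 4 erythroid, 4 of 5 neuronal, 3 of 4 macrophage, 3 of 5 endothelial, 3 of 5 Schwann cell and 1 of 8 mesenchyme and fibroblast markers, and higher in 1 Schwann cell marker (Mbp). The log2 of the summed signal of the erythroid markers was 7.75 to 8.37 in OS, 16.91 to 17.96 in CSE and 8.77 to 11.8 in ESCs. For the supporting cell markers it was 11.9 to 13.1 in OS, 15.4 to 15.7 in CSE and 12.78 to 12.99 in ESCs, and for the hair cell markers 10.91 to 12.49, 14.27 to 14.41 and 10.75 to 11.05. For the neuronal markers the ranges were 11.9 to 13.3, 14.1 to 15.3 and 14.0 to 14.1. Such a sum mostly follows its brightest marker, which can differ between groups. For the supporting cell markers this was Tecta in OS (mean 12.07, and 5.04 in ESCs) but Sox2 in ESCs (12.59, and 8.23 in OS). The neuronal sum in OS was led by Snap25, with a mean of 12.34 in OS and 12.32 in CSE. Similar sums therefore do not mean similar markers. The erythroid markers Hbb-bt and Alas2 were not well above background on any OS array. The part of these cell types in the lower signals of Crabp1, Cyp26b1 and Stra6 was not tested.

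The OS samples were not alike in this pathway. The range over the 4 OS samples was 8.46 log2 units for Aldh1a2, larger than that of all but 10 of 47976 kept probes. For Rbp4 it was 6.02 as measured, with the lowest sample, OS6, not well above background. Rarb (3.66) and Cyp26b1 (3.49) were exceeded by 477 and 552 probes, and the median range of all probes was 0.588. For 5 genes the OS samples of slide 2 were below those of slide 1 without overlap, as did 17.5% of all probes (27.8% the other way), with slide 2 minus slide 1 at -6.05 for Aldh1a2, -4.13 for Rbp4, -2.21 for Cyp26b1, -2.09 for Rarb and -1.20 for Stra6. In CSE the sample of slide 2 differed from the mean of slide 1 by 0.00 for Aldh1a2, 0.64 for Rbp4, 0.15 for Cyp26b1, -0.11 for Rarb and 1.00 for Stra6. Whether OS4 to OS6 differ from OS1 to OS3 by slide or by culture cannot be told apart.

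The 5 genes had 1 order over the OS samples, OS3 highest, then OS1 and OS2, OS4 and OS5, and OS6 lowest, as did 6.9% of all probes. Slide 2 below slide 1, by which the 5 genes were named above, is part of that order and held for 17.5% of all probes. The 6.9% is thus a share over probes not chosen that way. This order was noticed in the values of Aldh1a2 and is given as a description. Of the 8 mesenchyme and fibroblast markers, 7 had it too, among them Col1a2, a fibrillar collagen chain, at 15.17 in OS1 and OS2, 15.89 in OS3, 13.30 in OS4 and OS5 and 8.61 in OS6. Pdgfra, a growth factor receptor of mesenchymal cells, was 10.34, 12.35, 9.21 and 7.36. The log2 of the summed signal of these markers was 16.78, 17.89, 15.77 and 15.54 in the same samples, 17.22 to 17.97 in CSE and 11.4 to 11.7 in ESCs, and none of the 8 was called higher in OS than in CSE. Dcn, the marker without this order, made up most of the sum in OS4 and OS5 (15.31) and in OS6 (15.51). The sum therefore hides the fall of the other 7 markers in OS6, where Col3a1 was 6.51. All 6 hair cell markers had the reverse order, with OS6 highest and OS3 lowest, as did 11.6% of all probes. The part of the mesenchymal and hair cell signals in the order of the RA genes was not tested.

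Among the 50 other genes of the pathway, 12 had this order of OS samples (24%). Examples with a wide range, picked from their values, were Dhrs3, which reduces retinal back to retinol, at 14.84 (OS1 and OS2), 15.80 (OS3), 13.22 (OS4 and OS5) and 11.79 (OS6), and Rarres2, which encodes the chemokine chemerin, at 11.41, 12.20, 10.33 and 7.38. Among the nuclear receptors other than Rarb, Rara ranged over 0.41, Rarg over 0.51, Rxra over 0.66, Rxrb over 0.48 and Rxrg over 1.20 log2 units in the same samples. Nr2f1, an orphan nuclear receptor, and Meis2, a homeobox regulator, also picked from their values, were higher in both OS samples of slide 2, at 16.21 and 16.13 against 15.27 and 14.73, and at 9.39 and 10.12 against 7.82 and 7.66.

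**Figure D3:**
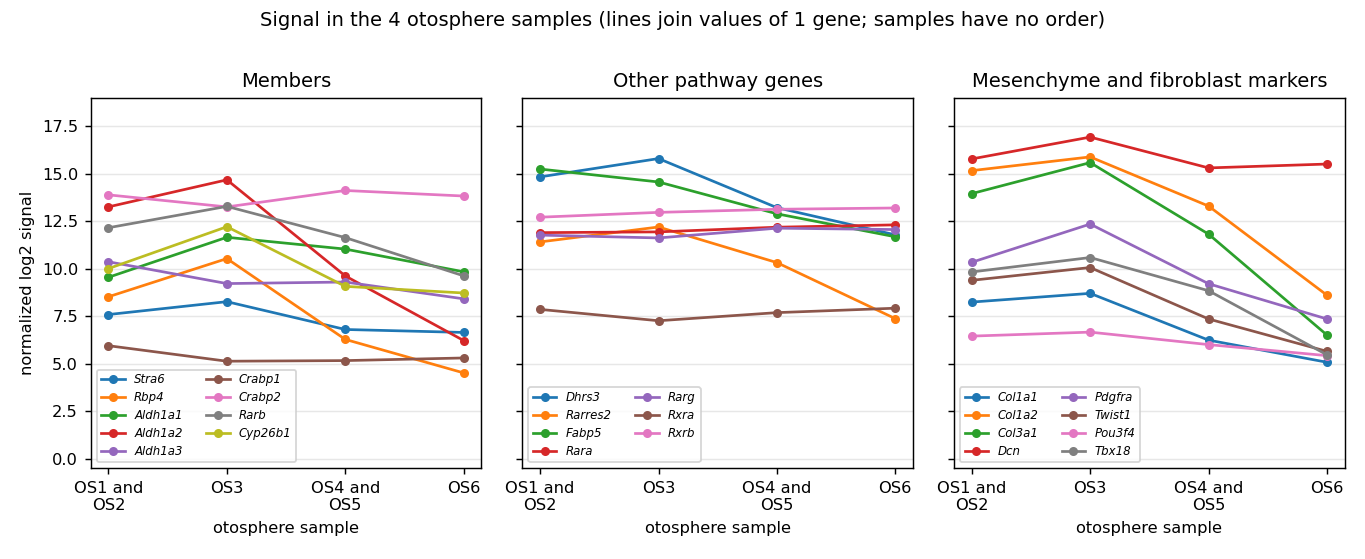
Normalized log2 signal (y axis) in the 4 OS samples (x axis) for the 9 genes, for 7 other pathway genes picked to show wide and narrow ranges, and for the 8 mesenchyme and fibroblast markers. Lines join the values of a gene, and the samples have no order of their own. Aldh1a2 spanned 8.46 log2 units and Rara 0.41.

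The 50 other genes fell into 6 groups by role, and 47 of them had a probe that passed the filter (not Adh7, Bco1 and Hoxb1). Each of the 47 was read from its brightest kept probe alone, and any further probes of these genes were not examined. The Nanog probe that did not mark ESCs was chosen by the same rule. Between OS and CSE, 3 of the 47 were higher and 5 lower in OS, beside 4.84% and 6.19% of all probes, with a median difference of -0.15. Of the 7 genes of transport and uptake, 1 was lower. This was Ttr, transthyretin, which holds the retinol carrier in the blood. It was 11.77, 11.52 and 12.03 in CSE and 5.06, 5.17, 6.51 and 5.47 in OS, with 1 of 6 OS arrays well above background, and OS minus CSE was -6.22 (adjusted p = 7.32e-05). Its size, too, depended on the floor of the arrays and ran from -8.20 to -5.40 over the alternatives. The lower signals of the erythroid markers in OS are given above, and their part in this result was not tested.

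Of 10 kept genes that oxidize retinol or reduce retinal, 2 were higher in OS and none lower. Rdh10, the main retinol dehydrogenase of the embryo, was 8.48, 8.40, 8.56 and 7.87 in OS and 7.825, 7.146 and 7.004 in CSE. Its lowest OS sample lay just above the highest CSE sample, and OS minus CSE was 1.00 (adjusted p = 0.0358). Rdh11, a retinal reductase, was 11.04, 10.11, 10.58 and 10.75 in OS and 9.53, 8.93 and 9.17 in CSE, a difference of 1.41 without overlap (adjusted p = 0.0133). The call of Rdh10 was lost in 8 of 20 alternatives and that of Rdh11 in 3.

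Of the 5 receptors and partners, 2 were lower in OS on the brightest probe of each gene. Rxrg was not called on that probe (difference -0.43, limma adjusted p = 0.463). Its means there were 11.21 in ESCs, 11.26 in OS and 11.69 in CSE. The study lists Rxrg among the transcription factors upregulated in ESCs and CSE but not in OS. Whether the study read the same probe was not examined, so the 2 results cannot be set against each other. Rara, an RA receptor found in most tissues, was 11.90, 11.94, 12.19 and 12.31 in OS and 12.73, 12.93 and 13.03 in CSE (difference -0.81, adjusted p = 0.0144). Rxrb, an RXR partner, was 12.72, 12.97, 13.13 and 13.20 in OS and 13.83, 13.53 and 13.86 in CSE (difference -0.74, adjusted p = 0.0264). Both had no overlap between the groups, and both differences were under 1 log2 unit. The calls of Rara and Rxrb were lost with median centring, at differences of -0.43 and -0.36, and with scaling to the 75th percentile, at -0.48 and -0.44. Rara was also lost without CSE3 (adjusted p = 0.0621), and Rxrb in 7 of 20 alternatives in all. Neither of the other 2 RA-degrading enzymes, Cyp26a1 and Cyp26c1, was called.

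Of 15 kept genes known to be induced by RA, 1 was higher and 1 lower in OS. Tgm2, a transglutaminase, was 14.27, 15.08, 13.65 and 13.12 in OS and 11.445, 10.77 and 11.41 in CSE, so that all OS samples were above all CSE samples. OS minus CSE was 2.82 (standard error 0.60), or 7.08-fold (adjusted p = 0.0173), and without CSE1, CSE2 or CSE3 the adjusted p was 0.0567, 0.0633 and 0.0569. Rarres1, named for its response to a retinoid, was 6.82, 6.63, 6.31 and 5.43 in OS and 8.48, 7.36 and 8.68 in CSE, a difference of -1.88 (adjusted p = 0.0218). Its call was lost without CSE1 (limma adjusted p = 0.0962), without CSE3 (0.0953), without OS4 and OS5 (0.0576) and with the replicate block (0.0945). The median difference of the group was -0.02. Against ESCs, 15 of the 47 pathway genes were higher and 9 lower in OS (12.1% and 15.6% of all probes), and 15 were higher and 10 lower in CSE (13.2% and 15.6%).

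**Figure D4:**
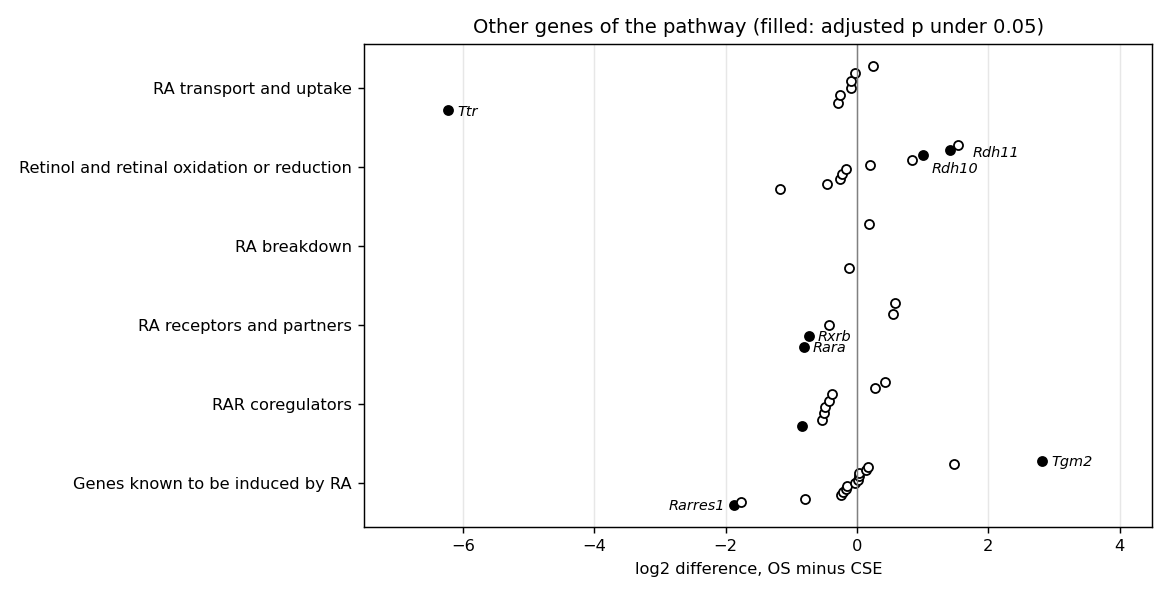
Log2 difference of OS minus CSE (x axis) of the 47 kept pathway genes other than the 9, by role. Each point is the brightest kept probe of 1 gene, filled where the adjusted p was under 0.05. The called genes described in the text are labelled. Ttr was lower by 6.22 and Tgm2 higher by 2.82, while most genes lay within 1 log2 unit of 0.

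For each of the 9 genes, the 2 named genes with the most similar profile over the 9 samples were found by Pearson's correlation among 18556 genes. The samples share groups and slides, so these values describe the profile only. Aldh1a2 was most like Hic1, a transcriptional repressor (r = 0.990), and B3gnt9 (0.988). Rbp4 was most like Ifitm2 (0.973) and Tacc1 (0.967), Rarb like Ggh (0.994) and Vav3 (0.993), and Cyp26b1 like Abat and Pld1 (both 0.989). Crabp1 was most like Fzd10, a Wnt receptor (0.989), and Ramp3 (0.987), and Crabp2 like Herc3 (0.996) and Speg (0.993). The nearest profiles were Cys1 (0.988) and Slc2a13 (0.983) for Aldh1a1, Fam168b (0.993) and Norad (0.985) for Aldh1a3, and Mro (0.995) and Vstm2a (0.987) for Stra6. None of the 9 genes was among the 2 nearest profiles of another.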

How the data were processed

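The authors deposited scanner files made with Feature Extraction 10.7.3.1, with unnormalized spot and local background intensity (medians over pixels, linear scale). They also deposited a table of log2 values after background correction, quantile normalization and a filter on dim probes (43657 probes), used here as an alternative. The deposited processed intensity served for another. For each array, 50 or 100 ng of RNA was labelled, and the sources used here do not say which.

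From the spot medians, the local background was removed by normexp (offset 16) in limma 3.58.1 (R 4.3.3), and log2 values were quantile-normalized over 11 arrays. Outlier-flagged spots were dropped and spots of a probe averaged. A probe was kept if on at least 2 arrays it exceeded, by 10%, the 95th percentile of 308 negative controls (3 arrays in the study's methods). A limma model of 3 group means was fitted to all kept probes, checked on simulated data. Averaging hides a spread between arrays of 1 sample, and quantile normalization removes shifts common to all genes. Probes were named by matching accessions to RefSeq genes of GRCm38.p6 (26762 of 55681). The array's own build is mm9, so probe positions are not given. Members and gene lists were chosen with earlier results of these data known. Besides cell type markers, the genes named outside the 9 are mainly those called between OS and CSE and the 2 nearest profiles of each member. Others are said to have been picked from their values. Some genes of the lists are counted but not reported here by name. Figures were drawn with matplotlib.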

Additional observations from a re-analysis of the deposited data

How the results depend on the processing

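Replicate numbers did not pair the samples: the deviations of OS and CSE arrays of the same number correlated at 0.356, -0.341 and -0.393. With every array separate and the number as a replicate block, OS minus CSE turned to 1.57 for Aldh1a2, 0.56 for Rarb and 1.44 for Rbp4, and 1 member (Rbp4, -2.12) was called lower in CSE than in ESCs instead of 0. With every array separate and no block, 5 members were lower in OS than in CSE instead of 3. The sign also turned for Rarb with median centring (0.0053), on its dimmer probe (0.48) and without OS6 (0.39), for Rbp4 with the slide as a block (0.0496), without OS4 and OS5 (0.11) and without OS6 (0.70), and for Aldh1a2 without OS6 (0.36), and the cause was not tested. Over the samples left out in turn, these differences ran from -2.46 to 0.36 for Aldh1a2, from -0.83 to 0.39 for Rarb and from -1.31 to 0.70 for Rbp4, lowest without OS3. Leaving out each sample in turn gave 2 to 4 members lower and 0 higher in OS than in CSE, 4 to 6 higher and 1 lower in OS than in ESCs, and 6 to 7 higher and 0 lower in CSE than in ESCs. For the other pathway genes it gave 1 to 6 lower and 0 to 3 higher in OS than in CSE (0 higher without CSE2 or CSE3, 1 lower without CSE3, 2 without CSE1, 3 without OS1 and OS2 or OS4 and OS5), 11 to 16 higher and 8 to 10 lower in OS than in ESCs, and 9 to 15 higher (9 without ES2) and 9 to 11 lower in CSE than in ESCs. Pathway genes lower in OS than in CSE numbered 3 with an offset of 0 and 2 each with median centring and with scaling to the 75th percentile, and 1 was higher with median centring. These pathway counts were recomputed after the data were seen. The median difference of all probes moved by over 0.1 for CSE minus ESC with median centring (-0.06 to -0.24) and with scaling to the 75th percentile (to -0.25), and for OS minus ESC with the latter (-0.03 to -0.28). The differences of Crabp1 and Cyp26b1 between OS and CSE kept their direction and stayed past the threshold in every alternative with a test. Signals not well above background, as for Crabp1 in OS, are limited by the arrays' floor.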

Other observations

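The 2 ESC arrays differed in genes known to be induced by RA. These genes were picked after their values were seen. Cdx1, a homeobox regulator of axial patterning, was 10.95 in ES1 (G4-2) and 7.29 in ES2 (D3), and Stra8, named for its response to RA, 9.46 and 7.57. Tgm2 was 11.34 and 9.02, Hoxd4 7.30 and 5.50, and Hoxb4 7.60 and 6.32, whereas Meis2 was 5.35 and 7.28. Hoxd4 and Meis2 were each well above background on only 1 of the 2 ESC arrays, so the floor of the arrays limits the size of their differences. Of 15 kept genes of this list, 7 were higher by over 1 log2 unit in ES1 and 1 in ES2, beside 6.73% and 7.53% of all kept probes, and the median difference of the list was 0.13. Rarb, in contrast, was 5.71 and 6.07, and Cyp26a1 was 7.12 and 7.58. There was 1 array of each line, so the difference has no replicate check, and line and slide cannot be told apart.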
